A study of Mus musculus with 6 samples.

Results

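The genes of the integrated stress response and of the unfolded protein response were followed at the RNA level in cultured mouse lymphoma cells carrying a hairpin against Dhx9, an RNA helicase. The set was a list of 42 gene names, and a gene belonged to it when a probe set carried its current or former symbol. Of these, 41 were measured, among 18784 measured genes in all, and Pycr1 was not analysed here. The set was split by role into an ATF4 branch of 22 measured genes, an ER branch of 15 genes and 4 stress sensors.

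All 6 samples were lymphoma cells that lack Arf and carry the Eµ-myc transgene and Bcl-2 (Arf-/-Eu-myc/Bcl-2), so both groups share them. The Eµ-myc transgene drives Myc from an immunoglobulin enhancer active in B-lineage cells. They were grown on a feeder layer of irradiated Arf-/- mouse embryonic fibroblasts in a medium with serum and beta-mercaptoethanol, a reducing agent. The hairpin Rluc.713, the control, was in 3 samples and Dhx9.1241 in the other 3. The labels name no drug, no ER stressor, no time after transduction and no animal age. The series is titled for resistance to the BH3 mimetic ABT-737, with Dhx9 as a modifier of the drug response, while these arrays compare the hairpins alone. Each group rests on 1 hairpin. Nothing in the labels tells whether its 3 arrays are separate cultures, so the p-values cover only differences among these arrays, possibly technical ones.

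Total RNA was read on Affymetrix arrays, with values on the log2 scale after robust multi-array averaging (RMA), and the 3 arrays a group limit the precision. The targeted gene Dhx9 was 1.99-fold lower with Dhx9.1241 (log2 change -0.99, adjusted p = 0.000129), while Dhx29, the gene that the titles of these arrays name, differed by 0.04 (adjusted p = 0.857). In a principal component analysis over all genes, the first control array stood apart on the second component, at 16.7 against -4.81 and -5.29 for the other controls. The B cell genes Cd79a and Cd79b lay between 13.62 and 13.89 in every array, and 2 of 12 B cell markers fell (Vpreb3 and Spib), with summed linear levels of 91237 to 96931 in the controls and 81955 to 86054 with Dhx9.1241. Myeloid markers were lower as a sum, 9627 to 10191 against 8393 to 8850. Of these 13 markers 4 fell (Lyz2, Csf1r, Tyrobp and Fcer1g), where 1.07% of all genes did. In the other direction, 2 of the 13 were higher at an unadjusted p under 0.05 in limma. Of 19 fibroblast markers 1 fell (Cav1), with overlapping sums of 5652 to 6303 and 5667 to 5746, and none of 12 T and NK cell markers was called by limma (1 with an unadjusted p under 0.05), with sums of 2119 to 2339 and 2263 to 2303. Plasma cell markers, a cell type rich in the ER branch, summed to 22673 to 23884 in the controls and 24113 to 24929 with Dhx9.1241. Of these 11 markers 1 rose (Slamf7, 0.35), and 4 also stand in the lists below (Derl3, Mzb1, Txndc5 and Xbp1). The list went both ways, with 5 higher and 1 lower (Mzb1) at an unadjusted p under 0.05 in limma. Groups were separate in 6 higher and 2 lower ones (Mzb1 and Xbp1), where all genes gave 11.6% and 8.51%. RMA values have no 0, so no marker was at 0, and the part of other cell types in the results below was not tested; in bulk RNA, fewer cells of a type and less RNA per cell cannot be told apart.

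The integrated stress response starts when kinases that sense amino acid shortage, ER stress, viral RNA or heme shortage phosphorylate the translation factor eIF2. Bulk translation then drops, while the messenger RNA of the transcription factor ATF4 is translated better, and ATF4 raises genes for amino acid synthesis, amino acid uptake and tRNA charging. The unfolded protein response is the answer of the endoplasmic reticulum (ER) to misfolded protein. Its sensor PERK (Eif2ak3) feeds into ATF4, IRE1 (Ern1) splices the Xbp1 messenger, and ATF6 is cut and moves to the nucleus, the last arms raising ER chaperones and genes that remove misfolded proteins. Much of this control acts on translation, splicing and protein cleavage, which arrays of RNA levels do not read. B-lineage cells are known for their use of the Xbp1 arm when they turn into antibody-secreting cells.

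At an adjusted p under 0.05 in limma, 2 of the 41 genes fell, Psat1 and Slc1a4, and none rose, with an unadjusted p under 0.05 in 3 that were higher and 6 that were lower. Over all genes, 590 of 18784 were called (3.14%), 389 higher (2.07%) and 201 lower (1.07%), so a count as small as 2 does not set these genes apart. At an unadjusted p under 0.05 in limma, 1597 of the 18784 genes were higher and 1058 lower. All unadjusted counts from the 6 arrays in this report, also those of the markers and further lists, stand against that background. The remaining 39 did not pass the test, which does not show that they were unchanged. In the ER branch, none of 15 genes was called by limma, 1 of them had an unadjusted p under 0.05 (Sdf2l1), and none was called under any alternative setting except Sdf2l1 when limma's variance trend and robust option were used together (adjusted p = 0.0498).

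**Figure D1:**
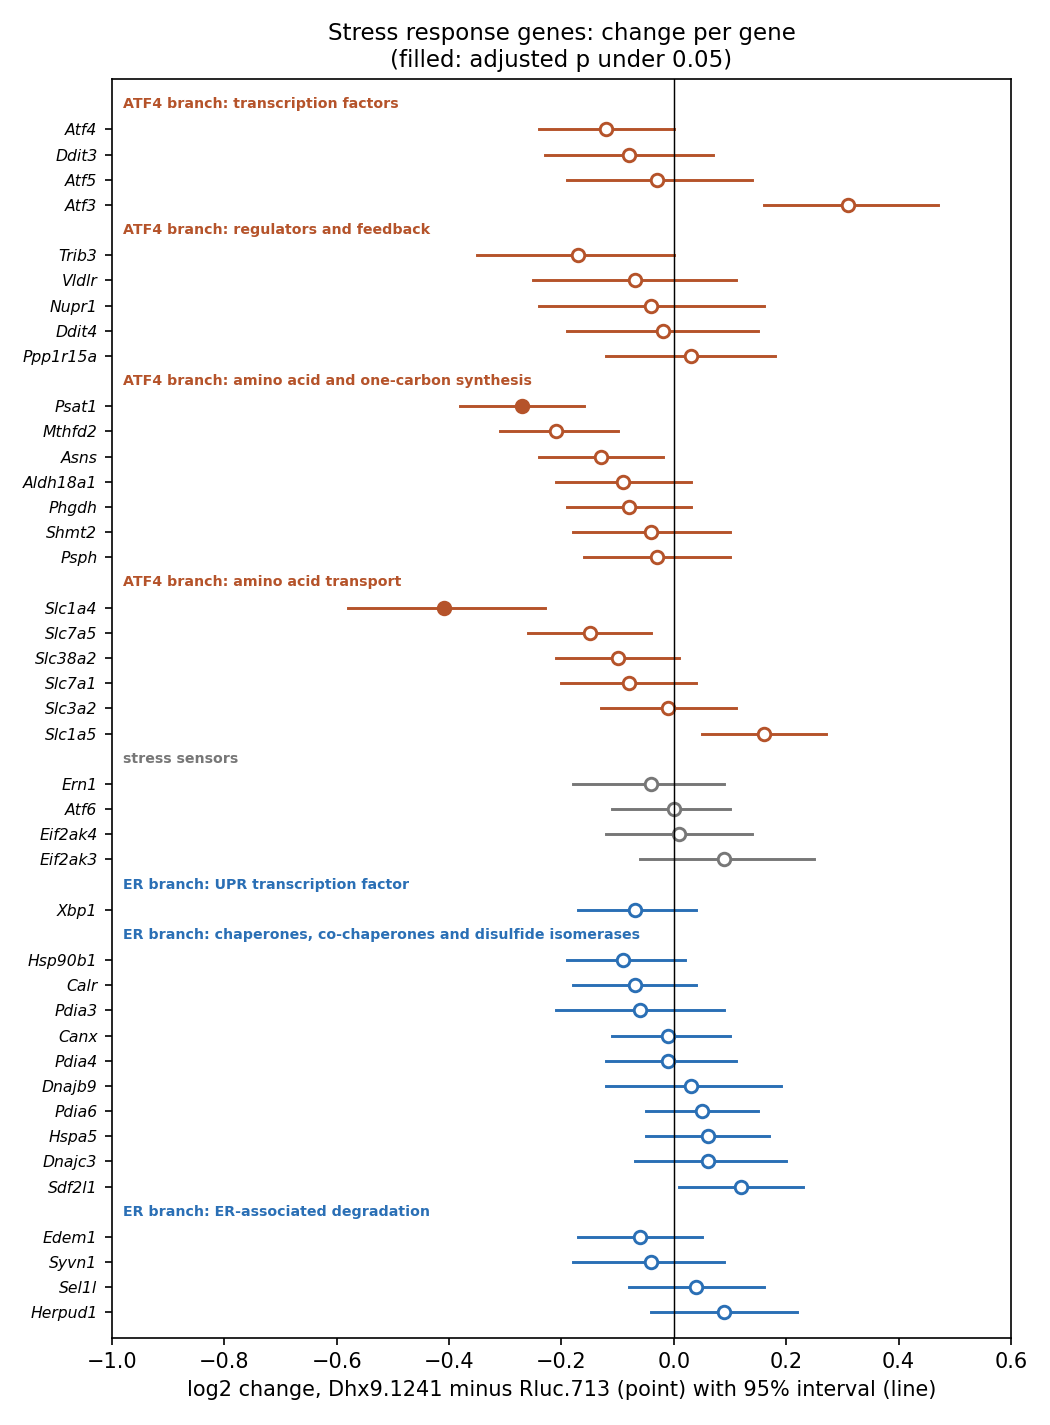
Log2 change of each of the 41 measured genes, Dhx9.1241 minus Rluc.713, with its 95% interval from limma (horizontal axis, log2 units; 3 arrays a group), grouped by role. Filled points mark Psat1 (-0.27) and Slc1a4 (-0.41), the genes called at an adjusted p under 0.05, and the ER branch points lie between -0.09 and 0.12.

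Among the 4 transcription factors of the ATF4 branch none was called by limma, 2 had an unadjusted p under 0.05 (Atf4 and Atf3), and the changes had both signs. Atf4 itself, the branch's central factor, read 10.87, 10.93 and 10.86 in the control arrays and 10.70, 10.81 and 10.79 with Dhx9.1241. All Dhx9.1241 arrays thus lay below all controls, by a mean of -0.12 (SE 0.0522, 95% interval -0.24 to 0.00; unadjusted p = 0.0498, adjusted p = 0.353). Atf3, a stress-induced factor that acts downstream of ATF4, read 9.96, 9.95 and 9.91 in the controls and 10.23, 10.40 and 10.14 with the Dhx9 hairpin. Its groups did not overlap and it was the highest of the ATF4 branch in change, at 0.31 (SE 0.0691, 95% interval 0.16 to 0.47), with an adjusted p of 0.0534. That p lay between 0.0143 and 0.0939 over 9 other settings, under 0.05 in 4 of them, and between 0.051 and 0.169 when single arrays were left out. Ddit3, which encodes the factor CHOP, and Atf5, a further factor under translational control, had overlapping groups and differed by -0.08 (adjusted p = 0.751) and -0.03 (adjusted p = 0.954).

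The 5 regulators and feedback genes of the branch had overlapping groups throughout, and 0 of them had an unadjusted p under 0.05 in limma. Trib3, a pseudokinase that ATF4 and CHOP raise, had means of 9.39 ± 0.119 in the controls and 9.22 ± 0.104 with Dhx9.1241 (SD, n = 3 each), a difference of -0.17 (adjusted p = 0.372). Ddit4, an inhibitor of mTORC1 signalling, differed by -0.02 (adjusted p = 0.970). Ppp1r15a, which encodes GADD34, the subunit that brings a phosphatase to eIF2 and so ends the response, differed by 0.03 (adjusted p = 0.940). Nupr1, a small stress-induced chromatin protein, and Vldlr, a lipoprotein receptor, differed by -0.04 and -0.07 (adjusted p = 0.943 and 0.835). In Atf5, Vldlr and Nupr1 the first control array held the highest value of the 6, at 9.16, 7.04 and 8.88.

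All 7 measured genes of amino acid and one-carbon synthesis had a change below 0, with a median of -0.09, and 1 of them was called. Psat1, the aminotransferase of the serine pathway, read 13.08, 13.18 and 13.17 in the controls (mean 13.14 ± 0.0514, SD, n = 3) and 12.87, 12.88 and 12.87 with Dhx9.1241 (12.88 ± 0.00427, SD, n = 3). The groups were separate and the level was 1.20-fold lower, or 16.9% (log2 change -0.27, SE 0.0482, 95% interval -0.38 to -0.16; adjusted p = 0.0249). The call held in 1 of the 6 fits that left out 1 array, the one without control replicate 1 (adjusted p = 0.0112). It was lost when control replicate 2 (adjusted p = 0.108) or control replicate 3 (0.0998) was left out, and when Dhx9.1241 replicate 1 (0.116), 2 (0.103) or 3 (0.106) was. With the replicate number as a block, the call was lost as well (adjusted p = 0.101).

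Next to Psat1 in the serine pathway, Phgdh, its first enzyme, differed by -0.08 with separate groups (11.63 to 11.66 in the controls, 11.53 to 11.62 with Dhx9.1241; adjusted p = 0.562). Psph, the last enzyme, had overlapping groups and differed by -0.03 (adjusted p = 0.926). In the folate cycle of the mitochondria, Mthfd2 read 12.42, 12.44 and 12.41 against 12.20, 12.26 and 12.19. Its groups were separate, with a difference of -0.21 (SE 0.0465, 95% interval -0.31 to -0.10) and an adjusted p of 0.0584, which fell under 0.05 in 5 of 9 other settings (range 0.00234 to 0.186). Shmt2, the serine hydroxymethyltransferase of the same cycle, had overlapping groups and differed by -0.04 (adjusted p = 0.903). Asns, the asparagine synthetase and a classic ATF4 target, read 13.56, 13.59 and 13.59 in the controls and 13.42, 13.50 and 13.43 with the Dhx9 hairpin. These groups were separate too, at -0.13 (SE 0.0468, 95% interval -0.24 to -0.02; adjusted p = 0.233), and with limma's variance trend and robust option together the adjusted p was 0.0115. Aldh18a1, an enzyme of proline synthesis, differed by -0.09 with overlapping groups (adjusted p = 0.581).

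**Figure D2:**
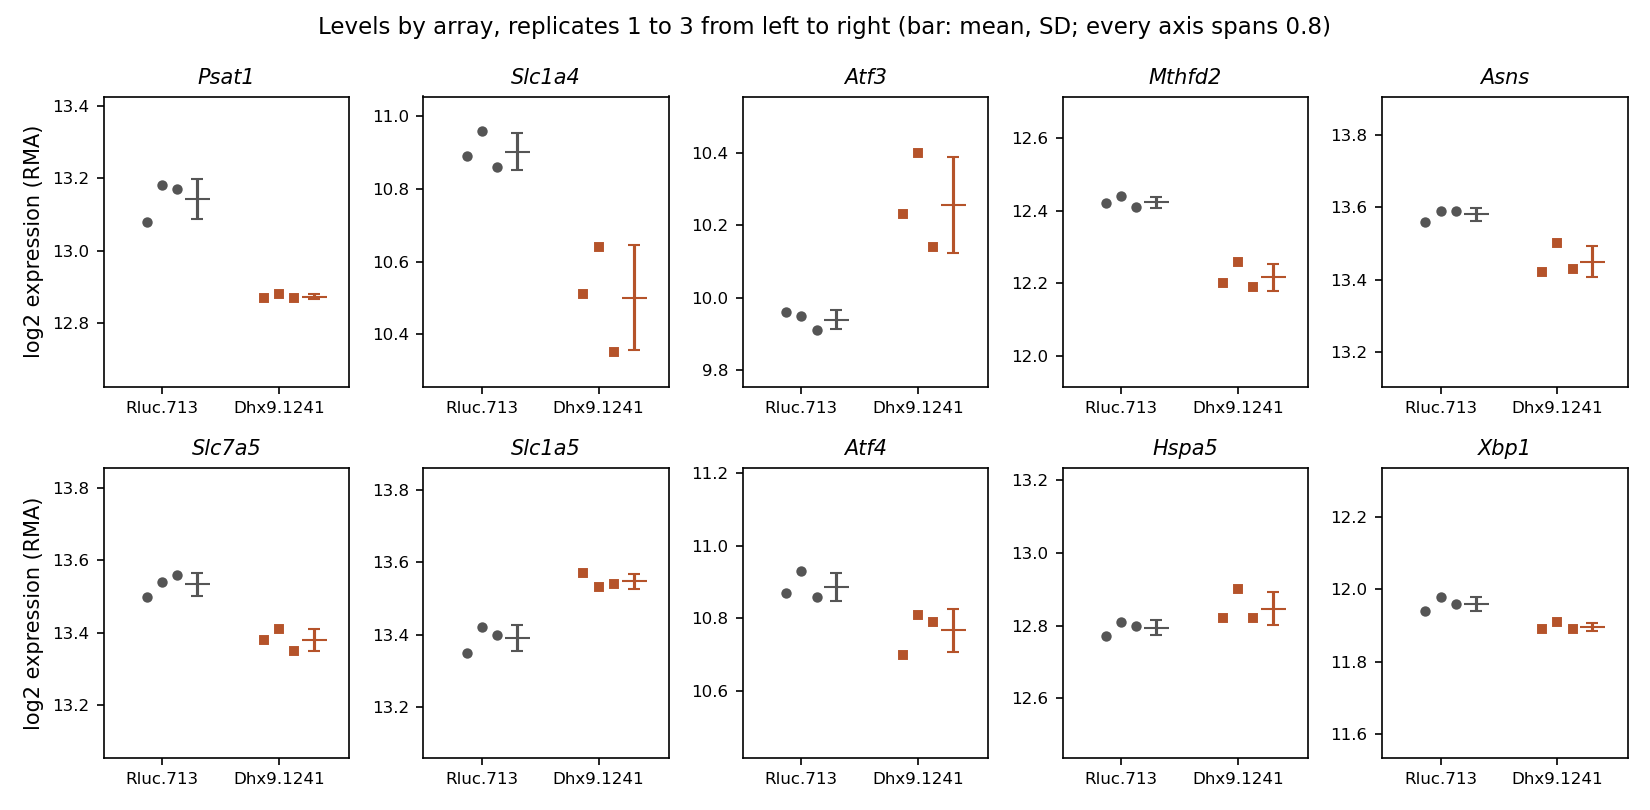
RMA log2 level in each array (points; 3 Rluc.713 and 3 Dhx9.1241 arrays, with the mean and SD of each group beside them) for 10 genes of the set, each panel with its own vertical axis of equal span. Psat1 and Slc1a4 have no Dhx9.1241 array above a control array, and Atf3 and Slc1a5 have none below.

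The 6 amino acid transporters split, with 5 changes below 0 and 1 above. Slc1a4, a carrier of alanine, serine and cysteine, read 10.89, 10.96 and 10.86 in the controls (10.91 ± 0.0491, SD, n = 3) and 10.51, 10.64 and 10.35 with Dhx9.1241 (10.50 ± 0.144, SD, n = 3). It had the largest change of the 41 genes, 1.32-fold or 24.5% lower (log2 change -0.41, SE 0.0751, 95% interval -0.58 to -0.23; adjusted p = 0.0279), with separate groups. Its call held in all 9 other settings. It held in 2 of 6 fits with 1 array left out, and was lost when control replicate 2 (adjusted p = 0.104), control replicate 3 (0.0754), Dhx9.1241 replicate 1 (0.116) or Dhx9.1241 replicate 3 (0.0863) was left out.

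Slc1a5, the glutamine carrier ASCT2 and the closest relative of Slc1a4 in the list, had a change of the opposite sign. It read 13.35, 13.42 and 13.40 in the controls and 13.57, 13.53 and 13.54 with Dhx9.1241, a difference of 0.16 (SE 0.0467, 95% interval 0.05 to 0.27) with separate groups. Its adjusted p was 0.139, with a range of 0.00358 to 0.457 over 9 other settings, 4 of them under 0.05. Slc7a5, the light chain of the large neutral amino acid carrier LAT1, read 13.50, 13.54 and 13.56 against 13.38, 13.41 and 13.35. The difference was -0.15 (SE 0.0468, 95% interval -0.26 to -0.04; adjusted p = 0.162), with separate groups. Slc3a2, the heavy chain that pairs with Slc7a5 in the same carrier, differed by -0.01 (95% interval -0.13 to 0.11; adjusted p = 0.985) and its groups overlapped. Slc38a2, the adaptive carrier SNAT2, differed by -0.10 with separate groups (adjusted p = 0.414), and Slc7a1, the cationic carrier CAT1, by -0.08 with overlapping ones (adjusted p = 0.642).

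The 4 stress sensors had overlapping groups and were not called by limma, with 0 at an unadjusted p under 0.05. Eif2ak3 (PERK) differed by 0.09 (95% interval -0.06 to 0.25; adjusted p = 0.693) and the first control array was the lowest of the 6, at 10.74. Eif2ak4 (GCN2, the sensor of uncharged tRNA) differed by 0.01, Atf6 by 0.00 and Ern1 by -0.04, with adjusted p of 0.982, 0.997 and 0.883.

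In the ER branch, the master chaperone Hspa5 (BiP), which holds the sensors inactive in unstressed cells, read 12.77, 12.81 and 12.80 in the controls and 12.82, 12.90 and 12.82 with Dhx9.1241. The groups were separate by a narrow gap, and the difference of 0.06 (SE 0.0478, 95% interval -0.05 to 0.17) had an adjusted p of 0.746. Sdf2l1, a partner of BiP, read 12.31, 12.28 and 12.30 against 12.43, 12.46 and 12.37. This was the largest change of the branch, 0.12 (SE 0.0476, 95% interval 0.01 to 0.23; unadjusted p = 0.0321, adjusted p = 0.278), with separate groups. The isomerase Pdia6 was also separate, at 0.05 (adjusted p = 0.762).

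Other chaperones lay on the opposite side of 0. Hsp90b1, the HSP90 of the ER, read 12.80, 12.81 and 12.85 in the controls and 12.70, 12.75 and 12.75 with Dhx9.1241, and Calr, the calcium-binding lectin chaperone calreticulin, 13.28, 13.34 and 13.25 against 13.24, 13.21 and 13.23. Both pairs of groups were separate, with differences of -0.09 (adjusted p = 0.494) and -0.07 (adjusted p = 0.675). Canx, the membrane-bound relative of Calr, differed by -0.01 (95% interval -0.11 to 0.10), Pdia3, the isomerase that works with both lectins, by -0.06, and Pdia4 by -0.01, with overlapping groups. The co-chaperones Dnajb9 and Dnajc3, which regulate BiP, differed by 0.03 and 0.06, also with overlapping groups.

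Xbp1, the transcription factor of the IRE1 arm, read 11.94, 11.98 and 11.96 in the controls and 11.89, 11.91 and 11.89 with the Dhx9 hairpin. The groups were separate and the difference was -0.07 (95% interval -0.17 to 0.04; adjusted p = 0.644). In these data the probe set gives 1 level for the gene and does not tell spliced from unspliced Xbp1. The 4 genes of ER-associated degradation had overlapping groups: Herpud1, which helps build the degradation complex, at 0.09, the mannosidase-like Edem1 at -0.06, and Sel1l and Syvn1, the adaptor and ligase of the complex, at 0.04 and -0.04. All 15 intervals of the ER branch lay within -0.21 to 0.23, so a change beyond that range lies outside the 95% interval of each gene.

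Set side by side, the changes of the ATF4 branch lay mostly below 0 and those of the ER branch on both sides of it. In the ATF4 branch 19 of 22 changes were below 0 (86.4%; 14 without Dhx9.1241 replicate 3 and 16 to 20 under the other alternatives), with a median of -0.08 and a range of -0.41 to 0.31. In the ER branch 8 of 15 were below 0 (53.3%), with a median of -0.01, a range of -0.09 to 0.12 and a sign of the median that turned to 0.01 after quantile normalization and 0.02 after cyclic loess. Over all genes 47.5% were below 0, the median was 0.00 and the median size of a change was 0.05. These shares moved with the scaling: centring on array medians put 60.6% of all genes below 0, and quantile normalization and cyclic loess each put 6 of the 15 ER branch genes below 0. Groups did not overlap in 10 ATF4 branch genes, 8 of them lower with Dhx9.1241 (Atf4, Asns, Psat1, Phgdh, Mthfd2, Slc7a5, Slc1a4 and Slc38a2) and 2 higher (Atf3 and Slc1a5). In the ER branch 3 were separate and lower and 3 separate and higher. With arrays centred on their medians, 1 higher and 0 lower were separate in the ER branch, against 2 and 8 in the ATF4 branch. Over all genes, the shares of separate groups were 8.51% lower and 11.6% higher. A lean below 0 was not particular to the ATF4 branch. Of the B cell markers 11 of 12 changes were below 0 (91.7%, median -0.11), and of the myeloid markers 11 of 13 (84.6%, median -0.11). The shares below 0 were 63.2% in fibroblast markers, 27.3% in plasma cell markers and 25.0% in T and NK cell markers.

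Array by array, the lean of the ATF4 branch was not uniform. Each gene was set against its control mean, and the median over the branch was -0.02, 0.02 and 0.01 in the control arrays and -0.09, -0.02 and -0.13 in Dhx9.1241 replicates 1, 2 and 3. The second Dhx9.1241 array thus sat level with the first control array. The ER branch medians were -0.03, 0.02 and 0.00 against -0.03, 0.00 and 0.02, so the groups overlapped. The ATF4 branch minus the ER branch was 0.01, 0.00 and 0.00 in the controls and -0.05, -0.02 and -0.15 with Dhx9.1241. The groups were separate by a narrow gap, 0.00 against -0.02, where the SD between arrays within a group was 0.0469 (pooled). As the difference of the branch medians of the fitted changes, the ATF4 branch minus the ER branch was -0.07. No test was made of this difference, since the genes of a branch share their arrays and are not replicates.

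**Figure D3:**
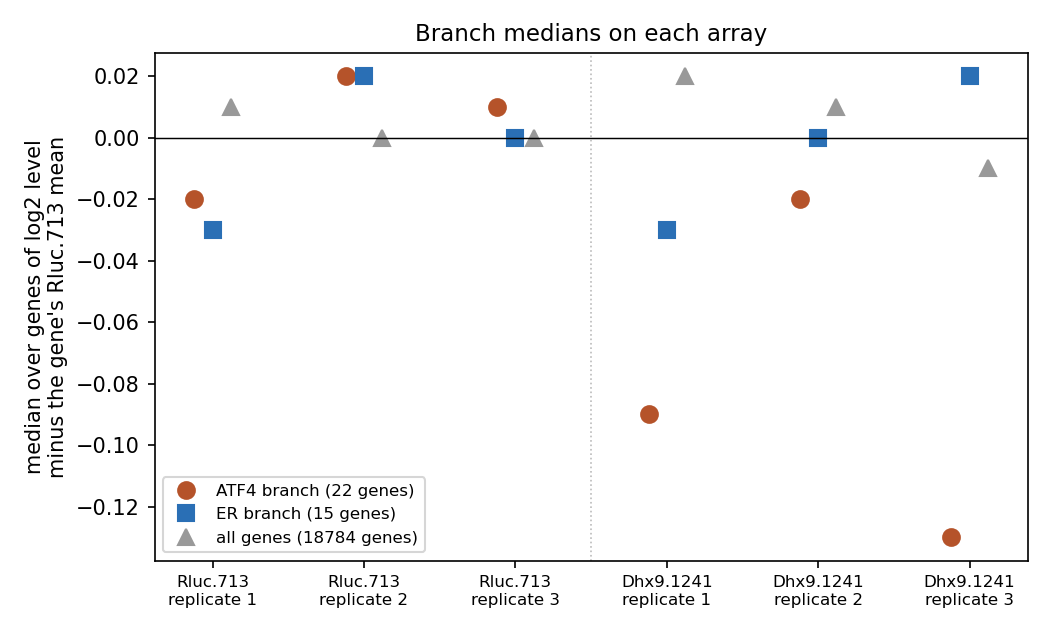
Median deviation from the control mean of each gene (vertical axis, log2 units) in each of the 6 arrays, for the 22 ATF4 branch genes, the 15 ER branch genes and all genes. The ATF4 branch is lowest in Dhx9.1241 replicates 1 (-0.09) and 3 (-0.13), and replicate 2 (-0.02) is level with control replicate 1.

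The counts moved with the settings. Without control replicate 1, the array that stood apart, the same 2 genes fell and none rose, where 2.65% of all genes were called higher and 2.12% lower. Under limma's variance trend and robust option together, 3 of the 41 genes were called higher and 5 lower, where all genes gave 3.58% and 2.48%. Quantile normalization again gave 1 higher and 2 lower, where all genes gave 2.7% and 1.92%. Cyclic loess gave 1 higher and 3 lower (all genes 2.68% and 1.84%), and array weights 1 higher and 4 lower (all genes 3.56% and 2.89%). None of the 41 genes was called by limma in the 4 fits that left out control replicate 2, control replicate 3, Dhx9.1241 replicate 1 and Dhx9.1241 replicate 3, where 2 to 3 higher and 4 to 5 lower genes had an unadjusted p under 0.05, and the fit that left out Dhx9.1241 replicate 2 called 1 (Slc1a4).

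The stretches upstream of the genes hold short letter patterns that are known to bind these pathways' factors. The C/EBP-ATF response element (CARE, TGATGNAA), where ATF4 and its partners bind, and the ER stress response element (ERSE, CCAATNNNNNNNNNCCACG), where ATF6 binds with NF-Y, were searched on both strands in the 250 bases before each RefSeq start site (GRCm38.p6). CARE was in 4 of the 20 ATF4 branch genes with a promoter entry (Asns, Atf3, Nupr1 and Vldlr), or 4 of their 24 windows. It was in 1 of 15 ER branch genes (Herpud1), which have 15 windows, against 3.45% of 32851 promoter windows in all. ERSE was in none of the 20 and in 7 of the 15 (Calr, Canx, Dnajc3, Hsp90b1, Hspa5, Pdia6 and Syvn1), against 0.113% of the windows. The UPR element TGACGTGG, known for XBP1, was in none of these genes and in 0.563% of the windows. Of 78 further pathway genes (below) with an entry, 4 hold the UPR element and 3 hold ERSE, in 4 and 3 of their 91 windows. None of the 3 patterns was in the sensors with an entry, and CARE and ERSE do not overlap in a stretch shown here. Slc1a5, Slc7a5 and Atf6 had no entry.

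For the ATF4 side, the stretches of Asns and Atf3 are shown because they hold CARE and their changes have opposite signs, that of Chac1 because this further ATF4 target fell (below), and that of Slc1a4 because it fell and holds no match. Capitals mark CARE on either strand, and each run reads 5′ to 3′ on the gene's own strand. They are chr6:7693210-7693459 on the minus strand for Asns, chr1:191183334-191183583 on the minus strand for Atf3, chr2:119350992-119351241 on the plus strand for Chac1 and chr11:20332714-20332963 on the minus strand for Slc1a4.
Asns: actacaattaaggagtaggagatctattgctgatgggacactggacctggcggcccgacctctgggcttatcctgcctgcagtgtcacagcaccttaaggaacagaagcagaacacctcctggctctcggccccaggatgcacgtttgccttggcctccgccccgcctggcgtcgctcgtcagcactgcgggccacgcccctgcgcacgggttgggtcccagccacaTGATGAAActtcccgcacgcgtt
Atf3: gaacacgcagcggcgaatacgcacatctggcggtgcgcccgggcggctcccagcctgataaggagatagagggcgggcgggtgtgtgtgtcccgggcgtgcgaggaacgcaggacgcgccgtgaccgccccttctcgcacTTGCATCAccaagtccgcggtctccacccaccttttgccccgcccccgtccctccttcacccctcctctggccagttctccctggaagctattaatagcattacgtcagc
Chac1: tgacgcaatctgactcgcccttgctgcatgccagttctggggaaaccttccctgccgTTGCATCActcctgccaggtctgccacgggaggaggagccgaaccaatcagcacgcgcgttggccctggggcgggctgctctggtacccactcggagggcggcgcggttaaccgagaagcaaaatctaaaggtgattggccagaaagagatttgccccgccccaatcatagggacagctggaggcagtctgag
Slc1a4: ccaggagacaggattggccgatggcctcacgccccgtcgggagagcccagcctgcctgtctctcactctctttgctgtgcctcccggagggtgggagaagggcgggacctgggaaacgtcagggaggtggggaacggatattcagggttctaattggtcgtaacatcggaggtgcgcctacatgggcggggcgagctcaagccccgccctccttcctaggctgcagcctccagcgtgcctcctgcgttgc
A match describes letters and not binding, and among the 4 CARE genes of the branch none was called. Of the further pathway genes (below), 10 of 78 with an entry hold CARE. Among these, Chac1, Jdp2 and Aars fell and the others were not called.

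For the ER side, Hspa5, Hsp90b1 and Calr are shown because each holds ERSE in full and their changes lay on both sides of 0 without a call. Capitals mark ERSE, and Hsp90b1 has 2 matches. They are chr2:34771840-34772089 on the plus strand for Hspa5, chr10:86705445-86705694 on the minus strand for Hsp90b1 and chr8:84846932-84847181 on the minus strand for Calr.
Hspa5: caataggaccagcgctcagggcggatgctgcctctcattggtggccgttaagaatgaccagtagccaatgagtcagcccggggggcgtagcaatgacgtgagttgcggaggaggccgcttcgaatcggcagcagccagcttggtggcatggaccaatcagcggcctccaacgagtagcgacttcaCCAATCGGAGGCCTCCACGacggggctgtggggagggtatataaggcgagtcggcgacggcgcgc
Hsp90b1: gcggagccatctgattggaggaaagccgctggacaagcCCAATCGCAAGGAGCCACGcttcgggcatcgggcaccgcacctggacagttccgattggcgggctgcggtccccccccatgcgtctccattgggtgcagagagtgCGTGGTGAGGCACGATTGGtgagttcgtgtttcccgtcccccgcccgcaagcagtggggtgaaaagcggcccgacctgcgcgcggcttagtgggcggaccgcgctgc
Calr: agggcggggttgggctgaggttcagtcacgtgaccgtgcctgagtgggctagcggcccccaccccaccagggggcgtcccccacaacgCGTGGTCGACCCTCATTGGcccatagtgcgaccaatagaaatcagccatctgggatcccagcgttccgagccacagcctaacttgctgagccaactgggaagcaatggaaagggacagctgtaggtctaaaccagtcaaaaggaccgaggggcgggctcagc
With the same element in the window, Hspa5 differed by 0.06 and Hsp90b1 by -0.09, neither of them called.

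Further genes of the same pathways, 104 measured of 113 listed, gave 2 called higher and 8 lower, beside 2.07% and 1.07% over all genes, and their median change was -0.01. The largest changes were among 25 other ATF4-linked targets, where 4 fell, 2 rose and 17 were below 0 (median -0.04). Cth, the enzyme that makes cysteine from cystathionine, read 11.02, 11.07 and 10.92 in the controls and 10.25, 10.23 and 10.11 with Dhx9.1241. It was 1.75-fold lower (log2 change -0.81, SE 0.0604; adjusted p = 0.000657), with a wide gap between the groups. Chac1, which degrades glutathione and is raised by ATF4 and CHOP, read 10.47, 10.69 and 10.48 against 9.79, 10.04 and 9.85, with separate groups and a 1.57-fold lower level (log2 change -0.65, SE 0.0834; adjusted p = 0.00575). Jdp2, a repressor of the AP-1 family related to Atf3, was lower by -0.44 on the log2 scale (adjusted p = 0.00545). These 3 calls held in all 6 fits that left out 1 array.

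The other calls among the ATF4-linked targets held less often when an array was left out. Eif4ebp1, a repressor of cap-dependent translation, fell (log2 change -0.25, adjusted p = 0.0271), Slc7a3, a cationic amino acid carrier, rose (0.53, adjusted p = 0.0485), and Ndrg1, a hypoxia and stress gene, rose (0.38, adjusted p = 0.0128). The calls of Eif4ebp1 and Slc7a3 held in only 1 of the 6 fits with an array left out, that without control replicate 1, with adjusted p up to 0.133 and 0.142 in the rest. Omitting control replicate 3, Dhx9.1241 replicate 1 or Dhx9.1241 replicate 2 ended that of Ndrg1 (up to 0.0661).

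Among 16 tRNA synthetases, which charge tRNAs and include known ATF4 targets, 2 fell and 11 were below 0 (median -0.03). Yars fell by 0.30 (adjusted p = 0.0291) and Aars by 0.23 (adjusted p = 0.0485) on the log2 scale, both with separate groups. Of the fits with an array left out, both calls held only in that without control replicate 1, with adjusted p up to 0.132 and 0.181 in the rest. Both were also lost with the replicate number as a block (Yars 0.099, Aars 0.158), and that of Aars when arrays were centred on their medians (0.0632). Of 11 genes of the eIF2 machinery 1 fell, Eif2s2, the beta subunit of eIF2 (10.45, 10.67 and 10.63 against 10.23, 10.00 and 10.13, log2 change -0.46, adjusted p = 0.019). Its call ended on leaving out control replicate 2, control replicate 3, Dhx9.1241 replicate 2 or Dhx9.1241 replicate 3 (adjusted p up to 0.0892), and the list's median was 0.01.

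Of 21 other ER chaperones and folding enzymes, 5 higher and 3 lower ones had an unadjusted p under 0.05 in limma (median 0.02). Only 1 was called, Cnpy3, a chaperone of Toll-like receptors, which fell (log2 change -0.36, adjusted p = 0.0177). The same 4 omissions each ended that call (adjusted p up to 0.0923). None of 20 genes of ER-associated degradation and translocation was called by limma, with 4 higher ones at an unadjusted p under 0.05 (median 0.03). Its member with the largest change was Derl3, a derlin abundant in secretory cells, which read 9.75, 10.01 and 9.97 against 10.23, 10.26 and 10.20. The difference was 0.32 with separate groups (adjusted p = 0.0587, and 0.0311 without control replicate 1). That p was under 0.05 in 6 of 9 other settings (range 0.0162 to 0.133). Ube2g2, a ubiquitin-conjugating enzyme of the same pathway, differed by 0.19 (adjusted p = 0.155). None of 11 other UPR regulators was called by limma (1 at an unadjusted p under 0.05, median 0.06), with the largest differences in Map3k5, the kinase ASK1 (-0.17, adjusted p = 0.420), and Crebrf, a regulator of CREB3 (0.17, adjusted p = 0.164).

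**Figure D4:**
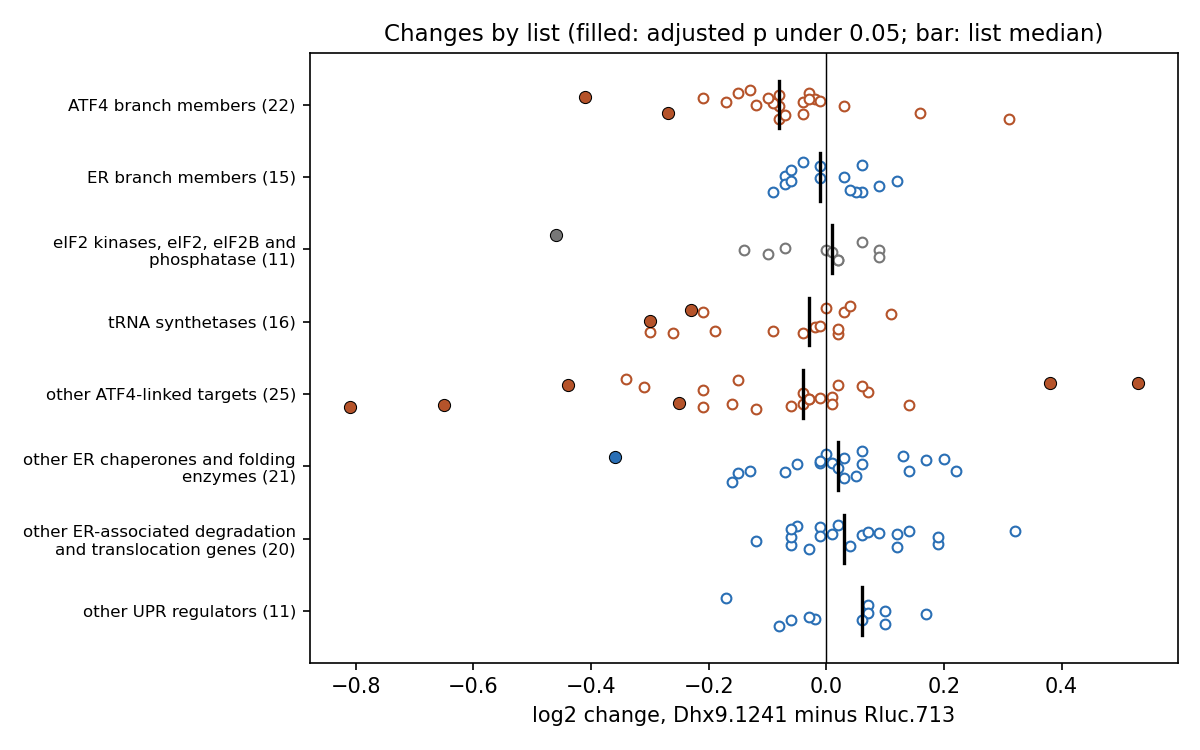
Log2 changes (horizontal axis, Dhx9.1241 minus Rluc.713) of every measured gene in each list of the stress pathways, 1 point a gene, with the list's median as a bar and called genes filled. The lowest points are Cth (-0.81) and Chac1 (-0.65) among other ATF4-linked targets, and in the lists of the ER Cnpy3 (-0.36) is lowest and Derl3 (0.32, not called) highest.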

How the data were processed

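Total RNA of 6 lymphoma cell samples was labelled with a 3′ in vitro transcription kit and read on Affymetrix arrays, per the labels' protocols. Deposited values are log2 intensities per probe set from RMA, per the submitters' processing notes. For RMA, its version, like the build and probe set rule, is not given in the sources used here. RMA puts all arrays on 1 distribution and can understate changes of dim genes. The log2 scale was taken from the value range (3.97 to 14.6) and the array medians (8.43 to 8.51).

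Of 21212 probe sets, 18786 had 1 gene symbol, 6 had several and 2420 are unnamed here. Symbols were updated by Entrez number where the gene table of GRCm38.p6 allowed (18775), and 2 genes with several probe sets were read from the set with the highest mean level, leaving 18784 genes with no filter on level. Of 42 listed genes 41 were measured, of 113 further pathway genes 104 and of 74 marker genes 67; the rest are not analysed here. The genes and lists were chosen with earlier results of these data known.

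Samples were grouped by hairpin, and Dhx9.1241 minus Rluc.713 was fitted for all genes with limma 3.58.1 (lmFit, eBayes) in R 4.3.3, with no covariate. All adjusted p-values are Benjamini-Hochberg values over all genes from this two-sided limma test, and a gene was called under 0.05. The fit was tested on simulated data. Every listed gene that was measured may be named, and of the further lists the called genes, or, in a list with no call, the 2 that changed most; of markers, the called ones. Cd79a and Cd79b were named after their values were seen. Promoters are the 250 bases before RefSeq start sites of GRCm38.p6. Alternatives changed the probe set rule, the filter on dim genes, the normalization, the variance model, array weights and the arrays used.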

Additional observations from a re-analysis of the deposited data

How the results depend on the processing

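Over 15 alternatives, each of which changed 1 choice except that limma's variance trend and robust option were switched on together, 743 of 853 values of single genes (57 genes) kept their direction and their side of the threshold. Of the rest, 47 lost a call, 24 gained one and 39 changed sign, none of these among called values. Called listed genes numbered 2 and became 5 (genes at or above the median level), 4 (lower quartile), 4 (cyclic loess), 8 (trend and robust option) and 5 (array weights), and 0 to 2 when 1 array was left out. Those of the ATF4 branch, 2 in the report, became 5, 4, 4, 7 and 5 in the same order and 0 to 2, and the ER branch gave 1 with the trend and robust option. The 10 further pathway genes became 18 (median level), 17 (quantile normalization again), 24 (trend and robust option) and 18 (array weights), and 3 to 13 without 1 array. Calls over all genes, 590 in the report, numbered 991 of the 9392 kept by the median filter, and of all 18784 genes 1139 with the trend and robust option, 1211 with array weights, 264 with the replicate block and 205 to 896 without 1 array. The causes were not tested, except that filters and left-out arrays test fewer genes or samples. With the replicate number as a block (replicate block), 1 listed gene was called, 1 in the ATF4 branch, and 5 further pathway genes. The calls of Psat1, Yars, Aars, Eif4ebp1, Eif2s2 and Cnpy3 were lost there. Same-numbered arrays correlated at -0.27, -0.34 and 0.24 in their deviations from the group means, and other pairs at -0.37 to 0.48. The deviations of 3 arrays sum to 0, so these values cannot decide whether same-numbered arrays share a culture or a batch. The labels do not say. The split of calls among the listed genes, 0 higher and 2 lower, stayed so with arrays centred on their medians and became 1 and 2 (quantile), 1 and 3 (cyclic loess) and, under another weighting of the arrays, 1 and 4.

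The ER branch median became 0.02 with cyclic loess. Uncalled changes near 0 turned sign with array weights in Atf5 (0.024), Nupr1 (0.005), Ppp1r15a (-0.015) and Eif2ak4 (-0.031), with median-centred arrays in Eif2ak4 (-0.016), and with quantile normalization and cyclic loess in Slc3a2 (0.002 and 0.017), Atf6 (0.001 and 0.002), Canx (0.006 and 0.017) and Pdia4 (0.008 and 0.010). Without 1 array, the change ranged from -0.067 to 0.043 in Atf5, -0.093 to 0.036 in Ddit4, -0.124 to 0.017 in Vldlr, -0.102 to 0.035 in Nupr1, -0.021 to 0.065 in Ppp1r15a, -0.062 to 0.016 in Psph, -0.038 to 0.017 in Slc3a2, -0.040 to 0.039 in Eif2ak4, -0.016 to 0.012 in Atf6, -0.030 to 0.004 in Canx, -0.041 to 0.014 in Pdia4, -0.013 to 0.094 in Dnajb9 and -0.067 to 0.009 in Syvn1. With 3 arrays a group, 1 hairpin and no detection calls used here, probe sets near background could not be set apart.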
